A study of Homo sapiens with 24 samples.

Results

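The wild-type A549 libraries were compared with the wild-type HCT116 libraries, and the question was how gene expression of the 2 cell lines differed before any knockout. The comparison took the 3 libraries of A549 WT B and the 3 of HCT116 WT B, which are 6 of the 24 libraries of the series. They were chosen by their sample labels alone, and all gene symbols were used. The study deleted DNA binding domains of lncRNAs with CRISPR/Cas9 and sequenced RNA with and without the deletion. The libraries compared here carry no deletion and no treatment. Total RNA was depleted of ribosomal RNA, and the libraries were strand-specific. The other libraries were 2 A549 knockouts, 3 HCT116 knockouts and the wild-type set HCT116 WT A. The labels do not say whether the 3 libraries of a group came from separate cultures, so the spread between them may be technical. The SE printed with a log2(fold change) is worked back from the test and may be too small for genes with few counts in one line. Each tissue is represented by 1 line, so lung against colon and A549 against HCT116 cannot be told apart.

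A549 is a line from a human lung adenocarcinoma that is often used as a model of alveolar type II cells, the surfactant-secreting cells of the lung. HCT116 is a line from a human colorectal carcinoma. As background, A549 is known for loss of KEAP1, the adaptor that marks the transcription factor NRF2 for degradation, of STK11, which encodes the kinase LKB1, and of SMARCA4, an ATPase of the SWI/SNF chromatin remodelling complex, and for a homozygous deletion around CDKN2A at 9p21. HCT116 is known for a stabilizing mutation of CTNNB1, which encodes the Wnt effector beta-catenin, for an activating mutation of PIK3CA, and for deficient mismatch repair with a frameshift in TGFBR2. These alterations come from knowledge of the lines. They were not read from the data, which hold gene counts and no variants.

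Library totals were 58877335, 59466012 and 41563496 counts in A549 and 52435049, 64167879 and 60113193 counts in HCT116. Levels below are CPM (counts scaled to 1000000 per library) after TMM normalization over the 6 libraries, and a positive log2(fold change) means higher in A549. CPM values are not divided by gene length, so they compare the lines within a gene and not genes with each other. Of 27882 genes tested with edgeR's quasi-likelihood test, 9962 were called at FDR < 0.1 (Benjamini-Hochberg) and |log2(fold change)| > 1, which is 35.7% of the genes tested. In A549, 4806 genes (17.2%) were higher, and in HCT116 5156 genes (18.5%) were higher, so 48.2% of calls were higher in A549. With library totals in place of TMM the median of all genes moved by -0.26 on the log2 scale, and 3939 of 10540 calls (37.4%) were higher in A549. The direction of small differences therefore depends on the scaling. The 3 libraries of one line did not overlap those of the other in 65.4% of genes tested. Among the called genes, 717 had 0 counts in all HCT116 libraries and 634 had 0 counts in all A549 libraries. For such a gene the fold is given as a lower bound against 3 counts in each library, which covers counting error only. For a gene with 1 to 3 counts over a whole group a ratio with its exact counting interval is given.

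**Figure D1:**
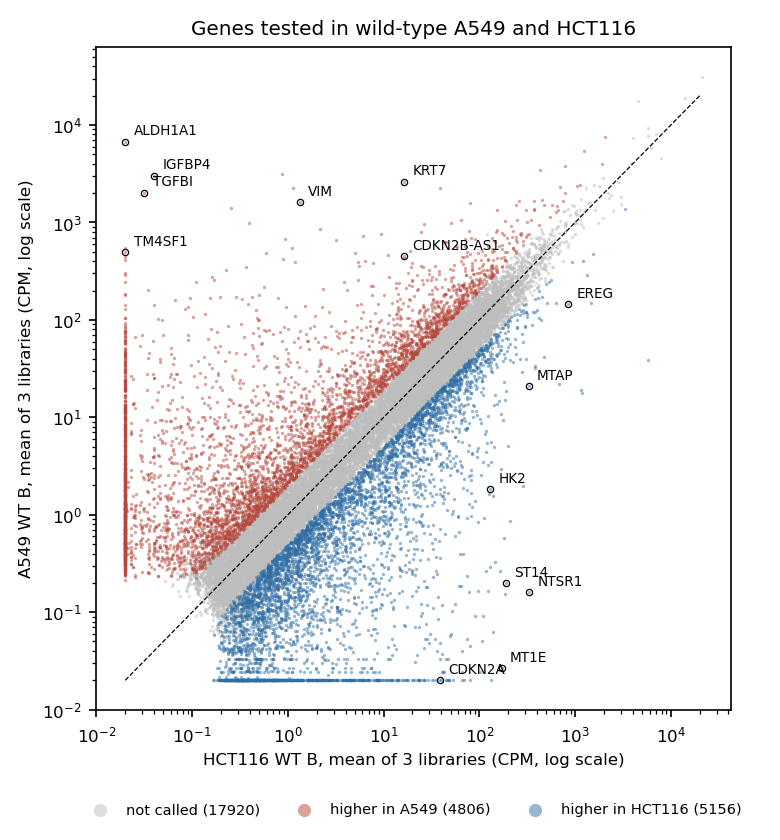
Mean CPM of each gene tested in HCT116 WT B (x axis) against A549 WT B (y axis), both on log scales, with genes called higher in A549 in red (4806), those called higher in HCT116 in blue (5156) and the 17920 not called in grey. Means under 0.02 CPM are drawn at 0.02, the dashed line marks equal levels, and ALDH1A1 at the upper left and CDKN2A at the lower right lie along the edges because the other line has hardly a read.

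The genes with the largest differences were read at high levels in one line and were nearly absent from the other. In bulk RNA, fewer expressing cells and less RNA per cell cannot be told apart, here and in the results that follow. ALDH1A1 (chr9:72900671-73080442, minus strand) encodes a cytosolic retinaldehyde dehydrogenase. It stood at 6939, 6889 and 6452 CPM in A549 and 0, 0.0581 and 0 CPM in HCT116 (log2(fold change) 18.17, SE 0.42). All HCT116 libraries together held 4 ALDH1A1 counts. TM4SF1, a tetraspanin-like membrane protein, had 513, 487 and 499.8 CPM in A549 and 0 counts in all 3 HCT116 libraries and was at least 10672-fold higher in A549. IGFBP4 (chr17:40443450-40457725, plus strand), which binds insulin-like growth factors, had 3217, 2879.6 and 3002 CPM in A549 and 0, 0 and 0.121 CPM in HCT116. A single HCT116 library held IGFBP4 counts (log2(fold change) 16.09, SE 0.52). TGFBI, an extracellular matrix protein induced by TGF-beta, had 1999.8, 1988 and 2070.4 CPM in A549 and 0.0345, 0 and 0.0603 CPM in HCT116 (log2(fold change) 15.89, SE 0.31).

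GJA1, the gap junction protein connexin 43, averaged 141 ± 11.5 CPM in A549 and 0 in HCT116 (SD, n = 3 in this and the following means) and was at least 3013-fold higher in A549. CXCL5, a chemokine that attracts neutrophils, averaged 106 ± 15 CPM in A549 and 0 in HCT116 (at least 2258-fold higher in A549). Other A549 genes of this rank were the linker histone H1-3 (at least 9479.9-fold higher in A549), the neuronal adhesion molecules NRCAM (at least 2238-fold higher in A549) and PCDH9 (58579-fold higher in A549, 95% counting interval 10513 to 2313795), and the lncRNA LINC00842 (at least 8687-fold higher in A549). Among these genes the highest value in a HCT116 WT B library was the 0.121 CPM of IGFBP4.

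On the HCT116 side, MAGEB2, a cancer-testis antigen of the X chromosome (chrX:30215563-30220089, plus strand), had 0 counts in all 3 A549 libraries and 138, 134 and 127 CPM in HCT116 and was at least 2110.3-fold higher in HCT116. GTSF1, a germ cell factor of the piRNA pathway, averaged 0 in A549 and 79.3 ± 0.873 CPM in HCT116 (at least 1257-fold higher in HCT116). NTSR1, the neurotensin receptor, had 0.278, 0.201 and 0 CPM in A549 and 351, 328 and 319 CPM in HCT116 (log2(fold change) -10.91, SE 0.37). The HCT116 libraries lay close together, and 1 A549 library had no NTSR1 count. The metallothionein MT1E averaged 0.0265 ± 0.0459 CPM in A549 and 171 ± 13.2 CPM in HCT116 (log2(fold change) -12.49, SE 0.35), but it belongs to a family of near-identical copies whose reads may be split among them. The ubiquitin ligase TRIM72 had 0, 0.073 and 0 CPM in A549 and 108, 104 and 94.5 CPM in HCT116 (log2(fold change) -11.75, SE 0.35), the serotonin receptor HTR7 averaged 0.0243 ± 0.0421 CPM in A549 and 65.9 ± 4.16 CPM in HCT116 (log2(fold change) -11.12, SE 0.38), FAM83F 0.0503 ± 0.0463 CPM in A549 and 107 ± 4.43 CPM in HCT116 (log2(fold change) -10.87, SE 0.27) and ADIRF 0.0398 ± 0.0149 CPM in A549 and 65.6 ± 8.24 CPM in HCT116 (log2(fold change) -10.56, SE 0.2). The last 4 genes of this rank, OR51A10P, OR51B5, OR51M1 and OR52D1, lie in one run of genes on chromosome 11 and are described with that region.

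Gene lists were then read one by one against the background of 17.2% and 18.5%. The plot of calls by list orders them by the difference of the 2 shares, from the mesenchymal list on the A549 side to the epithelial list on the HCT116 side. No set test was run, so the lists are described by their counts and medians, beside a median log2(fold change) of -0.02 over all genes tested.

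**Figure D2:**
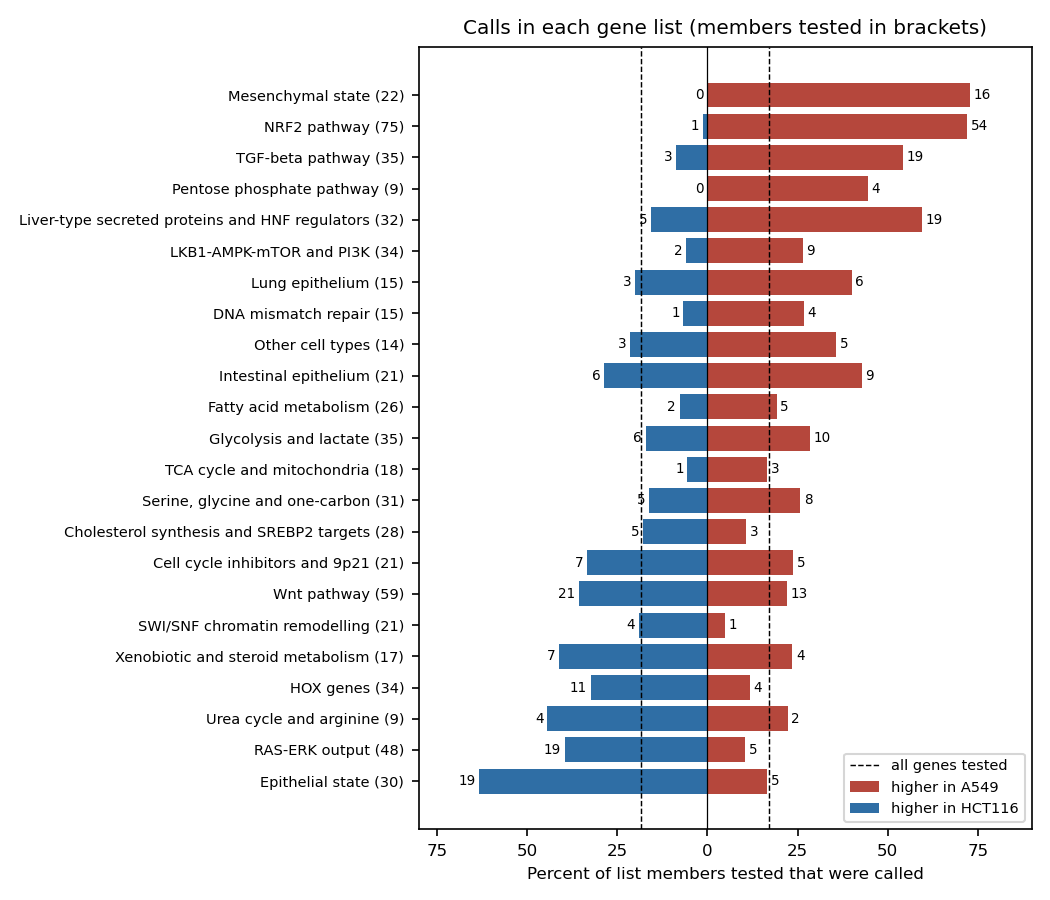
Percent of the tested members of 23 gene lists called higher in A549 (red, to the right) or higher in HCT116 (blue, to the left), with the number called at the bar ends and the members tested in brackets. The dashed lines mark the shares over all genes tested, 17.2% to the right and 18.5% to the left, and the mesenchymal list has no call on the HCT116 side.

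The tissue labels were checked against lineage markers. In A549 most defining markers of lung epithelium were near 0. NKX2-1, the transcription factor that specifies lung, had 0, 0 and 0.274 CPM in A549 and 1.19, 1.21 and 1.09 CPM in HCT116, so it was low in both lines and higher in HCT116 (log2(fold change) -3.81, SE 1). The surfactant protein genes SFTPA1, SFTPA2 and SFTPC, the transporter SLC34A2 and the club cell secretoglobins were too low to be tested. SFTPB averaged 1.53 ± 0.307 CPM in A549 and 1.51 ± 0.284 CPM in HCT116 and was not called. By contrast ABCA3, the lipid transporter of lamellar bodies in which surfactant is stored, averaged 88.7 ± 0.48 CPM in A549 and 12.8 ± 1.17 CPM in HCT116 (log2(fold change) 2.79, SE 0.080), and the difference was smaller against HCT116 WT A (log2(fold change) 1.38, SE 0.22). LAMP3, another lamellar body gene, went the other way, with 0.338, 0.219 and 0.249 CPM in A549 and 3.38, 4.26 and 3.94 CPM in HCT116 (log2(fold change) -3.83, SE 0.25). The airway mucins MUC5AC (54.9 ± 6.16 CPM in A549 and 0.42 ± 0.102 CPM in HCT116) and MUC5B (66.8 ± 7.29 CPM in A549 and 4.74 ± 0.298 CPM in HCT116) were also called higher in A549 (log2(fold change) 7.01, SE 0.19 and log2(fold change) 3.82, SE 0.11). The basal cell factor TP63 averaged 3.33 against 0.0768 CPM and SOX2 0.759 against 0.0424 CPM, A549 first, and both were called. Alveolar type I markers went both ways, here normalized over all 24 libraries. RTKN2 had 7.4 to 8.9 CPM in A549 and 21.1 to 22.3 CPM in HCT116 WT B. CAV1 had 656.8 to 767.4 CPM in A549 and 320.1 to 339.2 CPM in HCT116 WT B. AGER had 3.6 to 4.2 CPM in A549 and 6.5 to 7.6 CPM in HCT116 WT B, and was higher in A549 against WT A (log2(fold change) 2.58, SE 0.4). Of 15 lung markers tested, 6 were called higher in A549 and 3 in HCT116, or 5 and 4 with library totals. The A549 libraries thus hold ABCA3 and mucins of the labelled tissue, and little or nothing of its surfactant protein genes.

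HCT116 likewise lacked most markers of intestinal epithelium. CDX2, a homeobox factor that specifies intestine, had 0.754, 0.529 and 1.25 CPM in A549 and 17.3, 16.9 and 17.6 CPM in HCT116 (log2(fold change) -4.38, SE 0.29). PROM1 (CD133), a marker of intestinal stem and progenitor cells, averaged 0.0529 ± 0.0917 CPM in A549 and 28.4 ± 0.966 CPM in HCT116 (log2(fold change) -8.96, SE 0.6), and the receptor EPHB3 of the crypt base 0.978 ± 0.251 CPM in A549 and 10.2 ± 0.68 CPM in HCT116 (log2(fold change) -3.38, SE 0.22). Carbonic anhydrase CA2 averaged 0.871 ± 0.11 CPM in A549 and 23.1 ± 0.978 CPM in HCT116 (log2(fold change) -4.74, SE 0.14). CDX1, FABP1 and OLFM4 had 0 counts in all 6 libraries, and the stem cell receptor LGR5 averaged 0.053 CPM in A549 and had 0 counts in HCT116. Several intestinal genes were called on the side of the lung line. The goblet cell disulfide isomerase AGR2 averaged 22.1 ± 0.766 CPM in A549 and 0.136 ± 0.0612 CPM in HCT116 (log2(fold change) 7.30, SE 0.26), the cell surface glycoprotein CEACAM6 7.23 ± 1.04 CPM in A549 and 0.0538 ± 0.0586 CPM in HCT116 (log2(fold change) 6.95, SE 0.56) and the liver-intestine cadherin CDH17 6.97 ± 0.993 CPM in A549 and 0.513 ± 0.0961 CPM in HCT116 (log2(fold change) 3.76, SE 0.22). The CEACAM6 difference did not extend to the A549 knockout libraries. Normalized over all 24 libraries, CEACAM6 ran from 6.182 to 8.149 CPM in A549 WT B and from 0 to 0.31 CPM in the A549 knockouts. In those knockouts AGR2 and CDH17 remained above every HCT116 WT B library. EPHB2 averaged 155 ± 8.92 CPM in A549 and 39.9 ± 1.08 CPM in HCT116 (log2(fold change) 1.96, SE 0.062) and the epithelial factor ELF3 220.4 ± 24.9 CPM in A549 and 67.7 ± 2.75 CPM in HCT116 (log2(fold change) 1.70, SE 0.087). Among 21 intestinal markers tested, 9 were called higher in A549 and 6 in HCT116, or 8 and 8 with library totals.

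Genes of the hepatocyte programme, an endoderm programme driven by factors such as HNF4A and FOXA2, were mostly on the A549 side: of 32 members tested, 19 were called higher in A549 and 5 higher in HCT116, with a median log2(fold change) of 2.41. Of the 13 regulators listed, FOXA2, a pioneer factor of foregut endoderm, had 47.6, 46.9 and 38.6 CPM in A549 and 0 counts in all 3 HCT116 libraries and was at least 946-fold higher in A549. HNF4A averaged 79.1 ± 5.41 CPM in A549 and 9.76 ± 0.714 CPM in HCT116 (log2(fold change) 3.02, SE 0.088). HNF4A was low but present in HCT116, whereas FOXA2 and GATA4 (at least 90.3-fold higher in A549) had 0 counts there. The nuclear receptor NR5A2 averaged 52.6 ± 3.08 CPM in A549 and 2.58 ± 0.221 CPM in HCT116 (log2(fold change) 4.35, SE 0.1). FOXA3 (log2(fold change) -2.78, SE 0.25) and ONECUT2 (log2(fold change) -1.47, SE 0.073) were called higher in HCT116.

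Of 9 fibrinogen and coagulation genes 6 were called higher in A549 and 2 higher in HCT116, and of 11 lipoproteins and carriers 6 and 1. The 3 chains of fibrinogen were read in A549. FGA averaged 9.21 CPM (at least 197-fold higher in A549), FGB 5.01 CPM (log2(fold change) 7.78, SE 0.63) and FGG 1.62 CPM (161-fold higher in A549, 95% counting interval 44 to 1336). Fibrinogen-like FGL1 averaged 5.68 CPM (at least 121-fold higher in A549) and prothrombin F2 4.99 against 0.17 CPM (log2(fold change) 4.85, SE 0.35). The retinol carrier RBP4 (at least 51.5-fold higher in A549) and apolipoprotein APOH (at least 40.8-fold higher in A549) were also called. On the other side, coagulation factor F10 averaged 0.219 ± 0.179 CPM in A549 and 2.06 ± 0.449 CPM in HCT116 (log2(fold change) -3.26, SE 0.59). Of the carriers that define hepatocytes, APOA1, APOA2, APOC3 and TTR had 0 counts in A549, and ALB averaged 0.195 against 0.37 CPM, A549 first, and was not called unless A549 replicate 3 was left out (-1.78 on the log2 scale). SERPINA3, an acute phase protease inhibitor, was called here (log2(fold change) 4.51, SE 0.45) but not against HCT116 WT A (log2(fold change) 0.62, SE 1).

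Epithelial and mesenchymal genes went in opposite directions. An epithelial cell holds to its neighbours through cadherins, claudins and EPCAM under factors such as GRHL2 and the splicing regulators ESRP1 and ESRP2, and the ZEB, SNAI and TWIST factors repress this state and go with vimentin, N-cadherin and matrix genes. For the epithelial list, of 30 members tested, 5 were called higher in A549 and 19 higher in HCT116. For the mesenchymal list, of 22 members tested, 16 were called higher in A549 and 0 higher in HCT116. The median log2(fold change) was -3.23 for the epithelial list and 3.37 for the mesenchymal list.

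E-cadherin CDH1 itself had 71, 68.5 and 70.6 CPM in A549 and 89.2, 97.4 and 87.6 CPM in HCT116, and was not called (log2(fold change) -0.38, SE 0.059). The adhesion molecule EPCAM had 2.9, 2.63 and 3.27 CPM in A549 and 167, 174 and 159.7 CPM in HCT116 (log2(fold change) -5.83, SE 0.097), and the 2 groups were separated by a wide gap. Claudins CLDN4 (4.99 against 142 CPM, A549 first, log2(fold change) -4.83, SE 0.12) and CLDN7 (1.55 against 138 CPM, log2(fold change) -6.49, SE 0.18) and P-cadherin CDH3 (0.327 against 145 CPM, log2(fold change) -8.77, SE 0.17) were also higher in HCT116, and claudin CLDN2 was higher in A549 (30.9 against 6.14 CPM, log2(fold change) 2.33, SE 0.13). The membrane protease ST14 had 0.119, 0.182 and 0.299 CPM in A549 and 192, 191 and 182 CPM in HCT116 (log2(fold change) -9.91, SE 0.18). Its inhibitor SPINT1 averaged 0.931 against 111 CPM (log2(fold change) -6.92, SE 0.23).

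All 7 called epithelial regulators were higher in HCT116. GRHL2 had 0 counts in all 3 A549 libraries and 49, 47.6 and 47.1 CPM in HCT116 (at least 760.3-fold higher in HCT116), OVOL1 0 counts in all 3 A549 libraries and 16, 14.6 and 13.3 CPM in HCT116 (at least 232-fold higher in HCT116) and ESRP1 0.556, 0.11 and 0.125 CPM in A549 and 159, 164 and 164 CPM in HCT116 (log2(fold change) -9.23, SE 0.38). The 3 HCT116 libraries lay close together in each of these. ESRP2 averaged 2.29 against 82.6 CPM (log2(fold change) -5.17, SE 0.12) and the vesicle GTPase RAB25 0.185 against 61.6 CPM (log2(fold change) -8.27, SE 0.45), A549 first. Keratins, the intermediate filaments of epithelia, went both ways. KRT7, typical of lung and other simple epithelia, averaged 2618 ± 207 CPM in A549 and 16.5 ± 4.28 CPM in HCT116 (log2(fold change) 7.31, SE 0.22), KRT81 978 ± 122 CPM in A549 and 0.395 ± 0.0674 CPM in HCT116 (log2(fold change) 11.27, SE 0.18) and KRT80 237 ± 17.7 CPM in A549 and 14.5 ± 1.02 CPM in HCT116 (log2(fold change) 4.03, SE 0.087). KRT19 averaged 22 ± 2.64 CPM in A549 and 671 ± 31.9 CPM in HCT116 (log2(fold change) -4.93, SE 0.11), and KRT23 had 0 counts in A549 and 14.3 CPM in HCT116 (at least 227-fold higher in HCT116). KRT8 was not called, and its partner KRT18 was (1999 against 787 CPM, log2(fold change) 1.35, SE 0.089).

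VIM, the intermediate filament of mesenchymal cells, had 1642, 1622 and 1605 CPM in A549 and 1.57, 1.54 and 0.89 CPM in HCT116 (log2(fold change) 10.25, SE 0.24). N-cadherin CDH2 had 68.9, 76.6 and 72.7 CPM in A549 and 0 counts in all 3 HCT116 libraries and was at least 1552-fold higher in A549. Of the repressors, ZEB2 averaged 20.3 against 0.0627 CPM, A549 first (log2(fold change) 8.30, SE 0.19), ZEB1 31.6 against 3.63 CPM (log2(fold change) 3.12, SE 0.13) and TWIST2 13 against 0.0145 CPM (849-fold higher in A549, 95% counting interval 290.1 to 4120.5). SNAI1 and TWIST1 were not called, nor was SNAI2 unless HCT116 replicate 3 was left out (1.25 on the log2 scale). The matrix genes COL4A1 (161 against 0.0666 CPM, log2(fold change) 11.18, SE 0.35), COL4A2 (326 against 0.223 CPM, log2(fold change) 10.47, SE 0.36), COL5A1 (277 against 0.161 CPM, log2(fold change) 10.73, SE 0.51) and FN1 (348 against 19.4 CPM, log2(fold change) 4.17, SE 0.075) and the receptor tyrosine kinase AXL (567 against 71.3 CPM, log2(fold change) 2.99, SE 0.071) were called. ACTA2, smooth muscle actin, was called here (log2(fold change) 1.14, SE 0.35), but was -0.70 against HCT116 WT A and not called there. Without A549 replicate 3 (0.95), HCT116 replicate 1 (0.99) or HCT116 replicate 2 (0.93) it fell below the threshold as well. A549 thus held vimentin beside the keratins KRT7, KRT8 and KRT18 and beside CDH1.

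**Figure D3:**
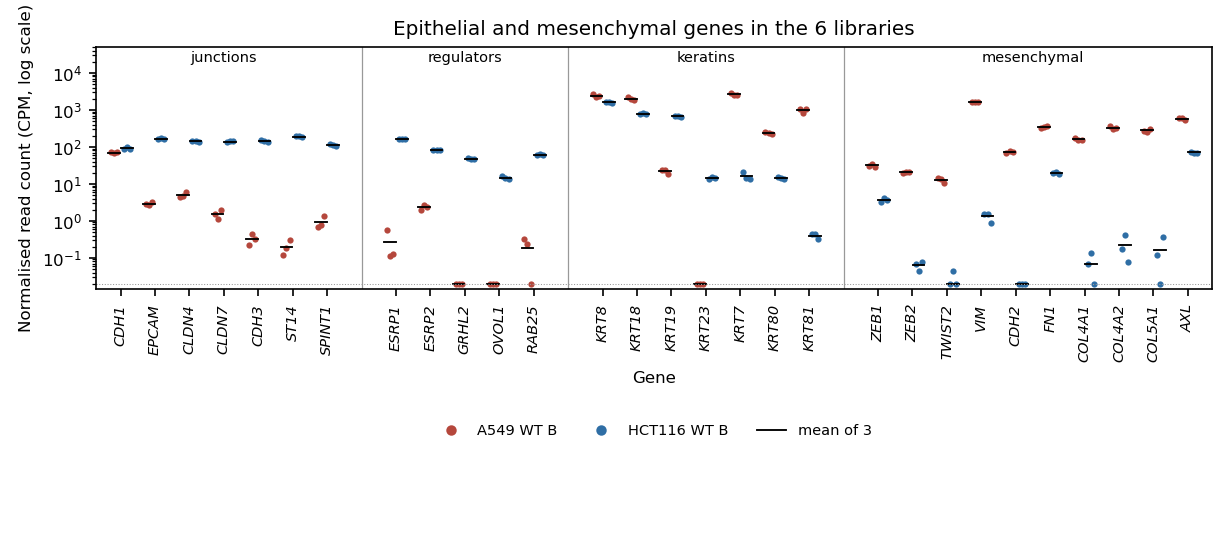
CPM (log scale) of 29 epithelial and mesenchymal genes in each of the 3 A549 (red) and 3 HCT116 (blue) WT B libraries, with a black line at the mean of 3 and values under 0.02 CPM drawn at 0.02. EPCAM, ST14, ESRP1 and GRHL2 lie high in HCT116 and near 0 in A549, VIM and CDH2 the other way round, and CDH1 and KRT8 lie close together.

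NRF2, encoded by NFE2L2, is the transcription factor of the antioxidant response. KEAP1 holds it at a low level, and when KEAP1 is lost NRF2 raises genes for NADPH supply, glutathione, carbonyl reduction and drug export through antioxidant response elements in their promoters. In the NRF2 list, of 75 members tested, 54 were called higher in A549 and 1 higher in HCT116. The median log2(fold change) was 1.68. Neither NRF2 itself nor its inhibitor was called. NFE2L2 had 101, 119 and 105 CPM in A549 and 96.4, 98.7 and 98.7 CPM in HCT116 (log2(fold change) 0.14, SE 0.070) and KEAP1 106, 95.9 and 104 CPM in A549 and 103, 99 and 91.8 CPM in HCT116 (log2(fold change) 0.06, SE 0.067), and the lines overlapped in KEAP1.

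In the group of aldo-keto reductases and carbonyl metabolism, whose enzymes reduce or oxidize aldehydes, ketones and quinones, 15 of 16 members tested were called higher in A549, with a median log2(fold change) of 8.56. The values below are those of single members. AKR1B10 had 2322, 2239 and 2161 CPM in A549 and 1.64, 1.15 and 0.634 CPM in HCT116 (log2(fold change) 10.95, SE 0.35), AKR1C2 3106, 3129.5 and 3302 CPM in A549 and 0.724, 1.12 and 0.754 CPM in HCT116 (log2(fold change) 11.83, SE 0.2) and AKR1C3 1375, 1424 and 1456 CPM in A549 and 0.19, 0.537 and 0.0302 CPM in HCT116 (log2(fold change) 12.42, SE 0.55). Each of them was among the strongly read genes of A549 and close to 0 in HCT116. AKR1C1, AKR1C2 and AKR1C3, and likewise AKR1B10 and AKR1B15, are close copies whose reads may be shared, so their separate values are uncertain. The aldehyde dehydrogenase ALDH3A1 averaged 680.2 ± 36.1 CPM in A549 and 0.928 ± 0.253 CPM in HCT116 (log2(fold change) 9.50, SE 0.2). Carbonyl reductase CBR1 (chr21:36069941-36073166, plus strand) averaged 91.8 ± 8.36 CPM in A549 and 0.0115 ± 0.0199 CPM in HCT116 (8924-fold higher in A549, 95% counting interval 2469.9 to 73693), while NQO1, the quinone reductase, was read in both lines (1358 ± 30.9 CPM in A549 and 372 ± 7.00 CPM in HCT116, log2(fold change) 1.87, SE 0.056).

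The glutathione and thioredoxin members were mostly read in both lines and had a median log2(fold change) of 1.40. SLC7A11, the cystine importer, had 737, 873 and 847 CPM in A549 and 82.5, 75 and 74.3 CPM in HCT116 (log2(fold change) 3.41, SE 0.089, and log2(fold change) 1.56, SE 0.44 against HCT116 WT A), and TXNRD1, thioredoxin reductase, 1666, 1659 and 1636 CPM in A549 and 364, 379 and 369.9 CPM in HCT116 (log2(fold change) 2.16, SE 0.056). GCLC and GCLM are the subunits of the enzyme that starts glutathione synthesis. GCLC averaged 206 ± 6.55 CPM in A549 and 81.4 ± 1.52 CPM in HCT116 (log2(fold change) 1.34, SE 0.050). GCLM had 68.8, 92.9 and 57.3 CPM in A549 and 7.64, 28.4 and 7.13 CPM in HCT116 (log2(fold change) 2.34, SE 0.54), and 1 of the HCT116 libraries stood well above the other 2. Against HCT116 WT A neither subunit was called (log2(fold change) 0.81, SE 0.15 for GCLC and log2(fold change) 0.61, SE 0.19 for GCLM). The glutathione peroxidases GPX2 (26.7 ± 4.72 CPM in A549 and 3.35 ± 1.06 CPM in HCT116, log2(fold change) 2.99, SE 0.25) and GPX4 (116 ± 15.6 CPM in A549 and 121 ± 7.8 CPM in HCT116, not called) differed in this.

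In the iron and haem group all 5 members were called higher in A549. Haem oxygenase HMOX1 averaged 116 ± 14.4 CPM in A549 and 13.6 ± 2.56 CPM in HCT116 (log2(fold change) 3.10, SE 0.16) and the ferritin light chain FTL 3466 ± 285 CPM in A549 and 433 ± 27.3 CPM in HCT116 (log2(fold change) 3.00, SE 0.092). The heavy chain FTH1 was near the threshold (log2(fold change) 1.02, SE 0.16), was not called under upper-quartile normalization, with library totals or against WT A (log2(fold change) 0.37, SE 0.38), and, like FTL, has many processed pseudogenes. Without A549 replicate 1 (0.85), HCT116 replicate 1 (0.98) or HCT116 replicate 3 (1.00) it was not called either. Among exporters, ABCC3 (628 against 44.8 CPM, A549 first, log2(fold change) 3.81, SE 0.080) and ABCG2 (70.8 against 1.53 CPM, log2(fold change) 5.53, SE 0.67) were called, and ABCC2 was called here (log2(fold change) 2.17, SE 0.35) but not against WT A (log2(fold change) 0.75, SE 0.4). NR0B1, an orphan nuclear receptor, had 44.9, 45.4 and 40.7 CPM in A549 and 0 counts in all 3 HCT116 libraries and was at least 932-fold higher in A549. UCHL1, a deubiquitinase, averaged 544 ± 19.4 CPM in A549 and 0.0194 ± 0.0336 CPM in HCT116 (log2(fold change) 14.53, SE 0.33). The single member called higher in HCT116 was the small MAF protein MAFF (8.08 against 19.7 CPM, log2(fold change) -1.28, SE 0.12), and MAFK was called higher in A549 (219 against 78.2 CPM, log2(fold change) 1.49, SE 0.049).

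The antioxidant response element was searched as TGACNNNGC on both strands in the 250 bases before and 50 after each RefSeq gene start (GRCh38.p14). RefSeq promoters matched 51 of the 67 NRF2 list members that are not regulators. The motif was in 13 of them (25.5%), beside 13.6% of all 27305 promoters in the table. It was in 9 of the 41 called members with a promoter and in 4 of the 10 not called. The windows below are printed 5′ to 3′ along the gene's own strand, because they belong to members whose levels are given here, and the capitals mark the motif or its reverse complement. The first 5 genes were called higher in A549, and GSTP1, a glutathione transferase (456 ± 50.5 CPM in A549 and 321 ± 6.08 CPM in HCT116), and ME1, malic enzyme (131 ± 10.5 CPM in A549 and 69.8 ± 3.82 CPM in HCT116), were not called.
GCLM (chr1:93909444-93909476, gene on the minus strand): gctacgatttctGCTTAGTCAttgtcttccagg
GPX2 (chr14:64942847-64942879, gene on the minus strand): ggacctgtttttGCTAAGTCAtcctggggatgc
TXNRD1 (chr12:104215668-104215700, gene on the plus strand): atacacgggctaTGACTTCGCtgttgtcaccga
PGD (chr1:10398851-10398883, gene on the plus strand): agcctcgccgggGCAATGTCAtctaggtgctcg
CBR1 (chr21:36069853-36069885, gene on the plus strand): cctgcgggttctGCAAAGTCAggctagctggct
GSTP1 (chr11:67583734-67583766, gene on the plus strand): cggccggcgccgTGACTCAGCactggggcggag
ME1 (chr6:83431168-83431200, gene on the minus strand): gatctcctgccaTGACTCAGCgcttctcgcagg
The 2 members that were not called hold the motif as well. A match is a description of the letters in the window and not a measured binding site.

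The pentose phosphate pathway makes NADPH and ribose from glucose, and several of its enzymes are NRF2 targets. PGD, an NADPH-making enzyme of its oxidative part, had 1429.9, 1345 and 1240.3 CPM in A549 and 153, 156 and 149.7 CPM in HCT116 (log2(fold change) 3.13, SE 0.073). The lowest A549 library lay far above the highest HCT116 library. Transketolase TKT had 740.4, 1232 and 1203 CPM in A549 and 294, 458 and 286 CPM in HCT116 (log2(fold change) 1.61, SE 0.25), with 1 A549 library lower and 1 HCT116 library higher than the rest of its line, and transaldolase TALDO1 averaged 267 ± 2.35 CPM in A549 and 101 ± 3.87 CPM in HCT116 (log2(fold change) 1.40, SE 0.051). The other 5 members tested, among them PGLS and RPIA, were not called. So of 9 members tested, 4 were called higher in A549 and 0 higher in HCT116 (44.4%, beside 35.7% of all genes). PGLS was called when A549 replicate 2 was left out (1.04 on the log2 scale).

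**Figure D4:**
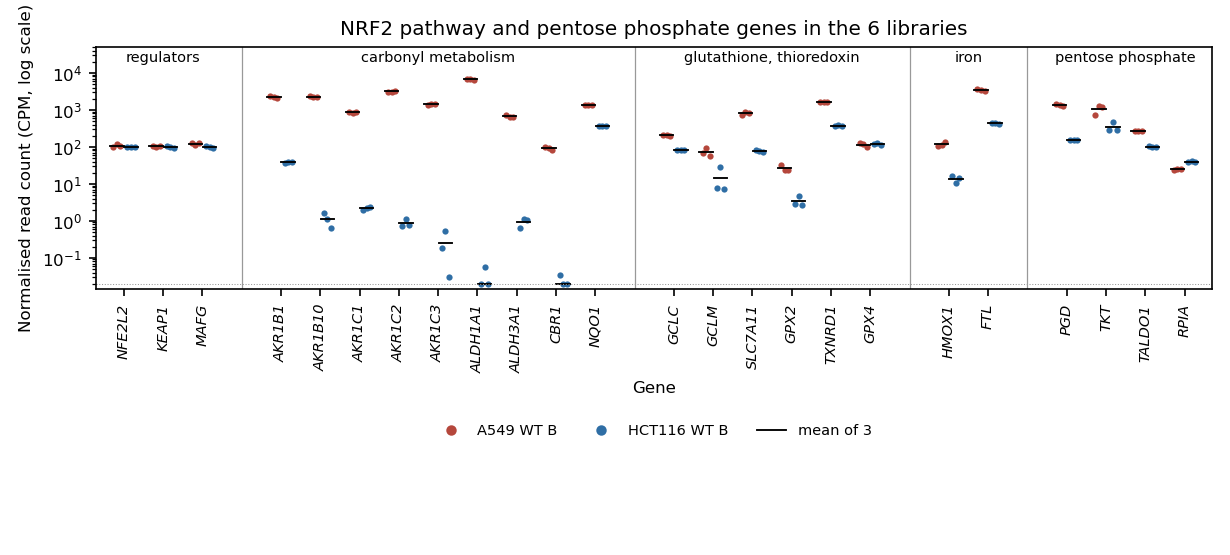
CPM (log scale) of NRF2 regulators, NRF2 targets and pentose phosphate genes in the 3 A549 (red) and 3 HCT116 (blue) WT B libraries, with a black line at the mean of 3 and values under 0.02 CPM drawn at 0.02. NFE2L2 and KEAP1 lie together, AKR1B10, AKR1C2 and AKR1C3 are high in A549 and close to 0 in HCT116, and PGD lies higher in A549.

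The genes named as altered in the lines were next read one by one. At 9p21, where CDKN2A (chr9:21967752-21995301, minus strand) encodes the cell cycle inhibitor p16, CDKN2A had 0 counts in all 3 A549 libraries and 42.4, 39.5 and 33.5 CPM in HCT116 and was at least 610.3-fold higher in HCT116. Its neighbour CDKN2B (chr9:22002903-22009305, minus strand), which encodes the inhibitor p15, had 0 counts in all 3 A549 libraries and 5.62, 5.55 and 7.17 CPM in HCT116 (at least 97-fold higher in HCT116). Both genes were thus undetected in A549 at these depths. MTAP (chr9:21802636-21937651, plus strand), an enzyme of methionine salvage on the telomeric side, had 19.3, 20.5 and 23 CPM in A549 and 327, 329.9 and 326 CPM in HCT116 (log2(fold change) -3.97, SE 0.079), so its A549 level was low but not 0. The antisense lncRNA CDKN2B-AS1 (chr9:21994139-22128103, plus strand), which spans CDKN2B, went the other way, with 385, 458 and 505 CPM in A549 and 14.1, 14.6 and 19.7 CPM in HCT116 (log2(fold change) 4.80, SE 0.17). DMRTA1 (4.94 against 0.149 CPM, A549 first) and IFNE (4.97 against 0.365 CPM), on either side of this block, and MLLT3 (33.6 against 4.48 CPM), farther to the telomere, were called higher in A549. KLHL9 was not called with all 6 libraries, and was without HCT116 replicate 3 (3.00 on the log2 scale). CDKN2B-AS1 overlaps CDKN2A and CDKN2B on the opposite strand, and the counting is not stated to use the strand, so reads of the antisense pair cannot be told apart with certainty.

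The mRNA levels of KEAP1 and STK11, both lost in A549 as functional proteins, were not called. STK11 had 75.7, 71.6 and 68.1 CPM in A549 and 106, 107 and 103 CPM in HCT116 (log2(fold change) -0.55, SE 0.057), with the A549 libraries below all HCT116 libraries. SMARCA4 had 30.5, 33.6 and 21.4 CPM in A549 and 116, 62.7 and 111 CPM in HCT116 (log2(fold change) -1.75, SE 0.26). One HCT116 library was lower than the other 2 but remained above all A549 libraries. Its paralog SMARCA2 (BRM), the alternative ATPase of the complex, had 61.2, 61.5 and 52.9 CPM in A549 and 16.7, 16.4 and 16.7 CPM in HCT116 (log2(fold change) 1.82, SE 0.080). Of the 19 other SWI/SNF subunits tested, SMARCD2 (log2(fold change) -1.33, SE 0.076), SMARCC1 (129 against 258 CPM, A549 first) and DPF3 (log2(fold change) -2.09, SE 0.45) were called (15.8%, beside 35.7% of all genes), all higher in HCT116. SMARCC1 lay on the threshold and was not called without A549 replicate 3 (-0.96), and SMARCD2 was not called against WT A (log2(fold change) -0.99, SE 0.21).

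Mismatch repair corrects errors of DNA replication. Of its genes, MSH3, which recognizes insertion loops, averaged 45.7 ± 3.49 CPM in A549 and 16.8 ± 1.37 CPM in HCT116 (log2(fold change) 1.44, SE 0.093), MSH6 302 ± 8.8 CPM in A549 and 136 ± 2.15 CPM in HCT116 (log2(fold change) 1.15, SE 0.049) and MLH3 66.1 ± 2.62 CPM in A549 and 28.4 ± 1.32 CPM in HCT116 (log2(fold change) 1.22, SE 0.065). In the list, of 15 members tested, 4 were called higher in A549 and 1 higher in HCT116 (33.3%, beside 35.7% of all genes). The 1 called higher in HCT116 belongs to the same group as MSH3 and MSH6 (MutS). The 6 members outside this group and that of MLH3 (MutL) were not called. With library totals 2 were higher in each line. Against HCT116 WT A, 8 members of this list were called.

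Of the genes mutated in HCT116, CTNNB1 had 474, 489 and 537 CPM in A549 and 446, 438 and 436 CPM in HCT116 (log2(fold change) 0.19, SE 0.063) and PIK3CA 30.1, 32.6 and 29.4 CPM in A549 and 34.8, 33.5 and 32.5 CPM in HCT116 (log2(fold change) -0.13, SE 0.072), and neither was called. TGFBR2 averaged 187 ± 4.75 CPM in A549 and 99.5 ± 0.699 CPM in HCT116 (log2(fold change) 0.91, SE 0.047) and was not called here, although the groups did not overlap. Against HCT116 WT A it was called (log2(fold change) 3.80, SE 0.14). On a scale normalized over all 24 libraries its level was 12.6 to 14.8 CPM in WT A and 105 to 107 CPM in WT B.

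**Figure D5:**
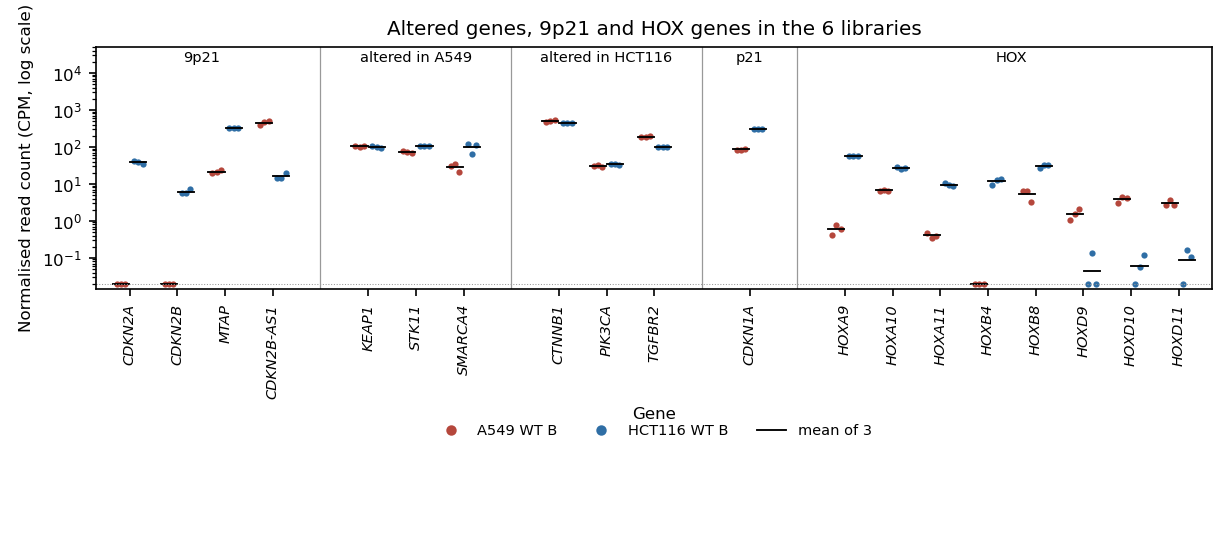
CPM (log scale) of 9p21 genes, genes known to be altered in one line, CDKN1A, and 8 HOX genes in the 3 A549 (red) and 3 HCT116 (blue) WT B libraries, with a black line at the mean of 3 and values under 0.02 CPM drawn at 0.02. CDKN2A, CDKN2B and HOXB4 are at 0 in A549, MTAP, SMARCA4 and CDKN1A are higher in HCT116, and KEAP1 and PIK3CA lie together.

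Wnt signalling stabilizes beta-catenin, which with TCF factors raises feedback inhibitors such as AXIN2, NKD1, RNF43 and NOTUM. Among targets and feedback genes, of 18 members tested, 2 were called higher in A549 and 10 higher in HCT116, with a median log2(fold change) of -1.14. NKD1 had 3.06, 3.65 and 3.79 CPM in A549 and 40.3, 44.3 and 41.9 CPM in HCT116 (log2(fold change) -3.59, SE 0.11) and RNF43, which removes Wnt receptors from the surface, 10.8, 12.9 and 20.2 CPM in A549 and 164, 158 and 158 CPM in HCT116 (log2(fold change) -3.45, SE 0.22). AXIN2, the scaffold of the destruction complex, had 9.39, 7.94 and 10.4 CPM in A549 and 30.5, 30.6 and 27.6 CPM in HCT116 (log2(fold change) -1.68, SE 0.12). These genes were higher in every HCT116 WT B library than in any A549 library. Against HCT116 WT A, NKD1 was still called (log2(fold change) -3.35, SE 0.27), but AXIN2 (log2(fold change) 0.38, SE 0.21) and RNF43 (log2(fold change) -0.59, SE 0.29) were not. NOTUM averaged 0.764 ± 0.136 CPM in A549 and 9.95 ± 1.18 CPM in HCT116 (log2(fold change) -3.69, SE 0.2), and BMP4 9.63 ± 0.976 CPM in A549 and 103 ± 3.08 CPM in HCT116 (log2(fold change) -3.41, SE 0.088). CCND1, cyclin D1, averaged 396 ± 36.3 CPM in A549 and 922 ± 37.2 CPM in HCT116 (log2(fold change) -1.22, SE 0.081), and SOX9, a crypt progenitor factor, 36.5 ± 1.62 CPM in A549 and 123 ± 6.00 CPM in HCT116 (log2(fold change) -1.76, SE 0.063).

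SP5, a direct target in many tissues, averaged 0.0199 ± 0.0344 CPM in A549 and 1.66 ± 0.462 CPM in HCT116 (79.2-fold higher in HCT116, 95% counting interval 26.9 to 386) and was the 1 of 13 target promoters matched in RefSeq that held the TCF/LEF motif CTTTGAT on either strand (7.69%), beside 2.64% of all 27305 promoters. The window is shown with the motif in capitals.
SP5 (chr2:170715216-170715246, gene on the plus strand): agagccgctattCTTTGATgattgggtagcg
The transcription factor TCF7L2, the usual partner of beta-catenin in colon, averaged 21.4 ± 1.78 CPM in A549 and 80.7 ± 1.4 CPM in HCT116 (log2(fold change) -1.91, SE 0.075), and LEF1 had 0 counts in all 6 libraries. Secreted Wnt antagonists leaned to A549: of 8 members tested, 5 were called higher in A549 and 2 higher in HCT116. SFRP1 had 59.1, 65.4 and 57.3 CPM in A549 and 0 counts in all 3 HCT116 libraries and was at least 1293-fold higher in A549, and DKK3 averaged 33.4 ± 2.07 CPM in A549 and 0.436 ± 0.205 CPM in HCT116 (log2(fold change) 6.27, SE 0.29). DKK1 (log2(fold change) 1.27, SE 0.055) was called here and not against WT A (log2(fold change) 1.49, SE 0.68). The ligands split. WNT16 (0.293 against 129.9 CPM, A549 first, log2(fold change) -8.83, SE 0.34) and WNT3A (0.198 against 7.15 CPM, log2(fold change) -5.15, SE 0.23) were higher in HCT116, and WNT7B (301 against 18 CPM, log2(fold change) 4.06, SE 0.11) and WNT5A (at least 135-fold higher in A549) in A549.

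RAS signals through RAF, MEK and ERK, and ERK activity raises its own inhibitors of the DUSP, SPRY and SPRED families and immediate early genes. In the RAS-ERK list, of 48 members tested, 5 were called higher in A549 and 19 higher in HCT116. Among feedback and target genes, of 20 members tested, 1 was called higher in A549 and 10 higher in HCT116. DUSP6, the phosphatase of ERK, had 7.05, 8.34 and 6.33 CPM in A549 and 114, 122 and 119 CPM in HCT116 (log2(fold change) -4.03, SE 0.11), SPRY4 14.9, 20.8 and 15.5 CPM in A549 and 146, 149 and 141 CPM in HCT116 (log2(fold change) -3.09, SE 0.13) and EGR1 4.65, 4.67 and 3.84 CPM in A549 and 115, 127 and 113 CPM in HCT116 (log2(fold change) -4.75, SE 0.1). Every HCT116 library stood above every A549 library for these 3 genes. DUSP4, DUSP5, ETV4 and EPHA2 were not called. PHLDA1 was called here (log2(fold change) -1.78, SE 0.070) and not against WT A (log2(fold change) -0.29, SE 0.69).

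The EGF receptor ligands EREG, AREG and TGFA were higher in HCT116 and the receptor in A549. EREG had 139, 164 and 133 CPM in A549 and 845, 852 and 842 CPM in HCT116 (log2(fold change) -2.54, SE 0.088), AREG averaged 29.4 ± 5.49 CPM in A549 and 135 ± 5.58 CPM in HCT116 (log2(fold change) -2.20, SE 0.13) and TGFA 18 ± 0.631 CPM in A549 and 81.6 ± 1.84 CPM in HCT116 (log2(fold change) -2.18, SE 0.059). EGFR had 1305, 1417 and 1402 CPM in A549 and 383, 363 and 368 CPM in HCT116 (log2(fold change) 1.89, SE 0.062). IGF1R, the receptor of insulin-like growth factors, averaged 635 ± 11.2 CPM in A549 and 43.8 ± 0.552 CPM in HCT116 (log2(fold change) 3.86, SE 0.053), ERBB3 13.4 ± 1.43 CPM in A549 and 49.5 ± 1.44 CPM in HCT116 (log2(fold change) -1.89, SE 0.093) and FGFR2 2.64 ± 0.463 CPM in A549 and 31 ± 1.94 CPM in HCT116 (log2(fold change) -3.56, SE 0.15). NF1, which switches RAS off, was the 1 member of the RAS and adaptor group called, higher in A549 (338 against 98.1 CPM, log2(fold change) 1.79, SE 0.058).

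Among cell cycle and stress genes, the cell cycle inhibitor CDKN1A (p21) had 82.7, 84.6 and 88.6 CPM in A549 and 303, 310.5 and 295 CPM in HCT116 (log2(fold change) -1.83, SE 0.053). GDF15, a stress cytokine, averaged 30.1 ± 0.745 CPM in A549 and 131 ± 6.13 CPM in HCT116 (log2(fold change) -2.12, SE 0.059), PMAIP1 (NOXA) 7.56 ± 1.03 CPM in A549 and 39 ± 0.395 CPM in HCT116 (log2(fold change) -2.37, SE 0.11) and the transcription factor TP73 1.67 ± 0.785 CPM in A549 and 46.7 ± 3.51 CPM in HCT116 (log2(fold change) -4.80, SE 0.35). The apoptosis effector BAX was higher in A549 (126 ± 9.16 CPM in A549 and 46 ± 1.35 CPM in HCT116, log2(fold change) 1.45, SE 0.067). MDM2, a ubiquitin ligase, had 208, 228 and 217 CPM in A549 and 409, 416 and 392 CPM in HCT116 and was not called (log2(fold change) -0.90, SE 0.057), although the lines did not overlap. Of the other cell cycle genes, cyclin CCND3 (275 against 32.2 CPM, A549 first, log2(fold change) 3.10, SE 0.095) and CDK6 (327 against 108 CPM, log2(fold change) 1.60, SE 0.082) were called higher in A549 and the imprinted inhibitor CDKN1C in HCT116 (0.673 against 7.25 CPM, log2(fold change) -3.40, SE 0.31). CDK4 and RB1 were not called.

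TGF-beta binds TGFBR2 and TGFBR1, and SMAD factors carry the signal to matrix genes and to the feedback inhibitor SMAD7. In this list, of 35 members tested, 19 were called higher in A549 and 3 higher in HCT116. Of 12 targets, 8 were called, all higher in A549. PMEPA1, a feedback inhibitor, had 409, 409 and 439 CPM in A549 and 1.09, 1.09 and 0.468 CPM in HCT116 (log2(fold change) 8.90, SE 0.28). The 2 groups were far apart, as for TGFBI above. CCN2 averaged 59.6 ± 2.26 CPM in A549 and 2.06 ± 0.609 CPM in HCT116 (log2(fold change) 4.85, SE 0.2) and SMAD7 115 ± 14.2 CPM in A549 and 13.8 ± 2.2 CPM in HCT116 (log2(fold change) 3.05, SE 0.14). Among ligands, TGFB2 averaged 134 ± 6.73 CPM in A549 and 0.965 ± 0.122 CPM in HCT116 (log2(fold change) 7.12, SE 0.11) and the activin subunit INHBB 81.8 ± 8.17 CPM in A549 and 0.482 ± 0.334 CPM in HCT116 (log2(fold change) 7.38, SE 0.38), and BMP7 was higher in HCT116 (1.28 ± 0.108 CPM in A549 and 15.1 ± 0.757 CPM in HCT116, log2(fold change) -3.56, SE 0.13). SMAD3 (log2(fold change) 2.11, SE 0.056), TGFBR1 (log2(fold change) 1.31, SE 0.083) and BMPR2 (log2(fold change) 2.04, SE 0.058) were called higher in A549.

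LKB1 activates AMPK and the SIK kinases, and without it CREB coactivators stay nuclear and raise cAMP response genes. In the list of LKB1, AMPK and PI3K genes, of 34 members tested, 9 were called higher in A549 and 2 higher in HCT116 (32.35%, beside 35.7% of all genes), or 5 and 3 with library totals. PDE4D, a cAMP phosphodiesterase, had 514, 568 and 571 CPM in A549 and 1.26, 1.16 and 0.905 CPM in HCT116 (log2(fold change) 8.96, SE 0.14). SIK1, itself a CREB target, averaged 223 ± 18.4 CPM in A549 and 19.6 ± 0.423 CPM in HCT116 (log2(fold change) 3.51, SE 0.075) and INSL4, an insulin-like peptide of the placenta, 6.97 ± 1.25 CPM in A549 and 0.0499 ± 0.063 CPM in HCT116 (log2(fold change) 7.02, SE 0.61). The orphan receptor NR4A2 (log2(fold change) -2.41, SE 0.16) and PDE4B (log2(fold change) -1.35, SE 0.054) were called higher in HCT116, so called CREB targets lay on both sides. The AMPK subunit PRKAA2 averaged 38.2 ± 5.59 CPM in A549 and 9.63 ± 1.29 CPM in HCT116 (log2(fold change) 1.99, SE 0.15).

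Metabolic genes were described list by list. In glycolysis, which breaks glucose down to pyruvate, of 35 members tested, 10 were called higher in A549 and 6 higher in HCT116. That is 45.7%, beside 35.7% of all genes, and with library totals the calls were 8 and 8. Hexokinases, which trap glucose in the cell, differed between the lines. HK2 averaged 1.84 ± 0.413 CPM in A549 and 130.0 ± 6.05 CPM in HCT116 (log2(fold change) -6.14, SE 0.16) and HKDC1 61.4 ± 5.03 CPM in A549 and 1.58 ± 0.0642 CPM in HCT116 (log2(fold change) 5.28, SE 0.1), while HK1 was not called. The aldolase ALDOC averaged 3.12 ± 0.412 CPM in A549 and 65.5 ± 3.91 CPM in HCT116 (log2(fold change) -4.39, SE 0.12). The kinase and phosphatase enzymes that set fructose 2,6-bisphosphate were also split, with PFKFB3 at 697 ± 35.4 CPM in A549 and 82.5 ± 2.23 CPM in HCT116 (log2(fold change) 3.08, SE 0.063) and PFKFB4 at 2.32 ± 0.561 CPM in A549 and 32.9 ± 0.697 CPM in HCT116 (log2(fold change) -3.83, SE 0.19). GAPDH, ALDOA, PGAM1 and LDHB carried no call, and the hypoxia factors HIF1A (499 against 134 CPM, A549 first, log2(fold change) 1.90, SE 0.067) and EPAS1 (376 against 67.5 CPM, log2(fold change) 2.48, SE 0.090) were called higher in A549.

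In the serine, glycine and one-carbon list, of 31 members tested, 8 were called higher in A549 and 5 higher in HCT116. That is 41.9%, beside 35.7% of all genes, and the median log2(fold change) was 0.02. CBS, which makes cystathionine from homocysteine, averaged 16 ± 0.962 CPM in A549 and 0.15 ± 0.119 CPM in HCT116 (log2(fold change) 6.68, SE 0.45) and the glycine decarboxylase GLDC 53.6 ± 2.24 CPM in A549 and 7.04 ± 0.462 CPM in HCT116 (log2(fold change) 2.93, SE 0.083). GCAT, of threonine breakdown, averaged 2.88 ± 0.196 CPM in A549 and 58.3 ± 2.86 CPM in HCT116 (log2(fold change) -4.34, SE 0.090). Glutamine synthetase GLUL (13.4 against 142 CPM, A549 first, log2(fold change) -3.41, SE 0.11) was higher in HCT116. The amino acid exchanger SLC7A5 had 4068, 3823 and 3443 CPM in A549 and 819, 786 and 746 CPM in HCT116 (log2(fold change) 2.27, SE 0.087). PHGDH, PSAT1 and SHMT2, which make serine and glycine, were not called. In the urea cycle, argininosuccinate synthase ASS1 averaged 10.3 ± 1.32 CPM in A549 and 56.2 ± 2.24 CPM in HCT116 (log2(fold change) -2.45, SE 0.11), ornithine decarboxylase ODC1 119.8 ± 16.2 CPM in A549 and 366 ± 6.86 CPM in HCT116 (log2(fold change) -1.61, SE 0.099) and CPS1 108 ± 3.19 CPM in A549 and 47.1 ± 2.2 CPM in HCT116. CPS1 was called here (log2(fold change) 1.20, SE 0.058) and not against WT A (log2(fold change) 0.97, SE 0.13).

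In the list of cholesterol synthesis, uptake and regulation, of 28 members tested, 3 were called higher in A549 and 5 higher in HCT116 (28.6%, beside 35.7% of all genes), or 1 and 8 with library totals. Of its 20 synthesis genes 2 and 3 were called. The exporter ABCA1 averaged 87.4 ± 5.51 CPM in A549 and 7.28 ± 0.855 CPM in HCT116 (log2(fold change) 3.59, SE 0.11). In fatty acid metabolism, of 26 members tested, 5 were called higher in A549 and 2 higher in HCT116 (26.9%, beside 35.7% of all genes), or 4 and 5 with library totals. The desaturase FADS2 had 539.9, 499 and 507 CPM in A549 and 20, 18 and 18.4 CPM in HCT116 (log2(fold change) 4.77, SE 0.072), and citrate lyase ACLY averaged 1506 ± 18.3 CPM in A549 and 476 ± 14.2 CPM in HCT116 (log2(fold change) 1.66, SE 0.057). FASN, fatty acid synthase, averaged 1375 ± 44.5 CPM in A549 and 3347 ± 199 CPM in HCT116 and was called higher in HCT116 (log2(fold change) -1.28, SE 0.072), but not against WT A (log2(fold change) -0.59, SE 0.33). FADS1 was called here (log2(fold change) 1.73, SE 0.68) and not against WT A (log2(fold change) 0.10, SE 0.63), where FADS2 was still called (log2(fold change) 4.73, SE 0.17). With single libraries left out, FADS1 was called without A549 replicate 3 (2.25) and not without A549 replicate 1 (1.51), A549 replicate 2 (1.29), HCT116 replicate 1 (1.70), HCT116 replicate 2 (1.71) or HCT116 replicate 3 (1.78).

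Among enzymes of xenobiotic and steroid metabolism, of 17 members tested, 4 were called higher in A549 and 7 higher in HCT116. CYP24A1, which inactivates vitamin D, had 515, 358 and 419.8 CPM in A549 and 9.85, 19.7 and 19.2 CPM in HCT116 (log2(fold change) 4.73, SE 0.3), CYP1B1, of the aryl hydrocarbon response, averaged 97.4 ± 4.6 CPM in A549 and 3.97 ± 0.916 CPM in HCT116 (log2(fold change) 4.62, SE 0.17) and the nicotinamide methyltransferase NNMT had 74.2, 67.9 and 73 CPM in A549 and 0 counts in all 3 HCT116 libraries and was at least 1530.2-fold higher in A549. CYP27B1, which activates vitamin D, averaged 2.23 ± 0.143 CPM in A549 and 16.4 ± 0.436 CPM in HCT116 (log2(fold change) -2.88, SE 0.12), and the steroid dehydrogenase HSD11B2 1.1 ± 0.338 CPM in A549 and 10.3 ± 0.536 CPM in HCT116 (log2(fold change) -3.24, SE 0.25). In mitochondria, NNT (chr5:43602692-43707405, plus strand), the transhydrogenase that makes mitochondrial NADPH, had 46.5, 50.8 and 51.9 CPM in A549 and 0 counts in all 3 HCT116 libraries and was at least 1061-fold higher in A549. Pyruvate carboxylase PC averaged 97.8 ± 2.81 CPM in A549 and 22.2 ± 1.63 CPM in HCT116 (log2(fold change) 2.14, SE 0.070), and the enzymes of the citrate cycle CS, IDH3A, OGDH, SDHA and MDH2 were not called.

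Among HOX genes, which record position along the body axis, the direction of calls differed by cluster. Of 34 members tested, 15 were called (44.1%, beside 35.7% of all genes). In HOXA 5 of 11 members tested and in HOXB 6 of 9 were called, all higher in HCT116. In HOXC 1 of 8 and in HOXD 3 of 6 were called, all higher in A549. Against HCT116 WT A the HOXC calls went both ways, with 2 higher in A549 and 1 higher in HCT116. HOXA9 had 0.417, 0.785 and 0.598 CPM in A549 and 57, 57 and 54.9 CPM in HCT116 (log2(fold change) -6.54, SE 0.19), HOXA11 averaged 0.401 ± 0.055 CPM in A549 and 9.36 ± 0.96 CPM in HCT116 (log2(fold change) -4.54, SE 0.19) and HOXA10 6.6 ± 0.288 CPM in A549 and 26.7 ± 1.26 CPM in HCT116 (log2(fold change) -2.02, SE 0.092). HOXB4 had 0 counts in all 3 A549 libraries and 9.38, 12.3 and 13.5 CPM in HCT116 and was at least 186-fold higher in HCT116, and HOXB8 averaged 5.35 ± 1.9 CPM in A549 and 30.6 ± 2.69 CPM in HCT116 (log2(fold change) -2.51, SE 0.26). HOXD9 averaged 1.55 against 0.0436 CPM, A549 first (log2(fold change) 5.02, SE 0.91), HOXD10 3.87 against 0.0596 CPM (log2(fold change) 5.93, SE 0.61) and HOXD11 3.05 against 0.0885 CPM (log2(fold change) 5.02, SE 0.64). These 3 HOXD genes were low in A549 too. HOXB6 (log2(fold change) -1.76, SE 0.081) and HOXB9 (log2(fold change) -1.49, SE 0.17) were called here and not against WT A (log2(fold change) 0.24, SE 0.27 and log2(fold change) 0.47, SE 0.44). With library totals 14 HOX genes were called higher in HCT116 and 3 in A549.

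On chromosome 11 a run of 18 neighbouring genes, from HBG1 to OR52D1, was called higher in HCT116. The run holds fetal and embryonic globin genes and olfactory receptor genes and pseudogenes between chr11:5248269 and 5505652, and adult HBB had 0 counts in all 6 libraries. OR51B5 (chr11:5303444-5505652, minus strand) had 0.139, 0 and 0.0498 CPM in A549 and 139, 135 and 144 CPM in HCT116 (log2(fold change) -11.08, SE 0.34), OR51M1 (chr11:5383812-5393263, plus strand) averaged 0.0447 ± 0.0406 CPM in A549 and 80.1 ± 6.47 CPM in HCT116 (log2(fold change) -10.64, SE 0.29), the pseudogene OR51A10P 0 in A549 and 65.8 ± 5.53 CPM in HCT116 (at least 1044-fold higher in HCT116) and OR52D1 0.0529 ± 0.0917 CPM in A549 and 74.5 ± 3.17 CPM in HCT116 (log2(fold change) -10.35, SE 0.48). HBG2 averaged 26.9 CPM and HBE1 42 CPM in HCT116, beside 0.0183 and 0.0243 CPM in A549. The annotated transcripts of HBG2, HBE1 and OR51B5 all reach to the far end of the run and span the genes between, so the counts of separate genes cannot be assigned with certainty. On the other side of OR52D1, UBQLNL was near 0 in both lines.

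Markers of other cell types were read at different levels. Of 7 leukocyte markers CD3E had 0 counts in all libraries and PTPRC averaged under 0.05 CPM in both lines. The summed level of the 7 ran from 7.51 to 11.2 CPM over A549 libraries and from 0.634 to 1.16 CPM over HCT116 libraries, and CD14 was called (8.44 against 0.175 CPM, A549 first, log2(fold change) 5.57, SE 0.72). Endothelial markers summed to at most 0.0794 CPM in A549 and ran from 2.05 to 2.78 CPM in HCT116, where VWF averaged 1.36 CPM (at least 21.6-fold higher in HCT116). Fibroblast markers summed to between 31.7 and 39.2 CPM in A549 and between 26.2 and 27.8 CPM in HCT116, nearly all from COL1A1, which was not called. DCN and LUM had 0 counts in HCT116 and averaged at most 0.12 CPM in A549. The 4 neural markers summed to between 240.4 and 271.1 CPM in A549 and between 147.0 and 176.4 CPM in HCT116, and 3 of the 4 were called, all higher in A549. Most of the sum was the tubulin TUBB3 (243 against 159 CPM, A549 first), which was not called, and the called ones included the synaptic vesicle protein SYP (5.27 against 1.94 CPM, log2(fold change) 1.44, SE 0.15) and the splicing factor RBFOX3 of mature neurons (5.88 against 0.231 CPM, log2(fold change) 4.66, SE 0.65).

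The comparison was set beside the other wild-type set of HCT116, which shares the A549 libraries and is therefore not independent. Against WT A, 10768 of 27800 genes (38.7%) were called. Of 214 named genes called against WT B and tested against both, 80 had a fitted fold change that differed by more than 1.5 times between the 2 sets, in either direction, so sizes of difference hold for WT B. Against WT A the values were log2(fold change) 9.29, SE 0.48 for VIM, log2(fold change) -5.96, SE 0.26 for EPCAM, log2(fold change) -3.35, SE 0.15 for MTAP, log2(fold change) -2.26, SE 0.28 for SMARCA4 and log2(fold change) -5.57, SE 0.24 for HK2, all called. OR52D1 was called against both, but its level in WT A was only 0.843 to 1.86 CPM, normalized over the 24 libraries.

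The libraries that did not enter the comparison were read for the same genes. The 6 A549 knockout libraries were set against the other HCT116 libraries, with 2 HCT116 libraries left out. In 5826 of the 9962 called genes (58.5%) all 6 lay on the same side as in wild type, and in 1 on the other side. In 27.4% of all genes tested, called ones included, the 2 sets did not overlap, in either direction. With the 2 libraries the number was 212 (2.13%), beside 1.12% of all genes tested in either direction. The 2 libraries are replicates 2 and 3 of the library group labelled HCT116 MSTRG.2513.6 KO, in which genes typical of A549 were read at A549 levels. Without them, ALDH1A1 lay between 2649 and 5534 CPM in the A549 knockouts and at no more than 0.300 CPM in the other HCT116 libraries. EPCAM lay between 1.39 and 3.61 CPM in the A549 knockouts and between 97.0 and 235 CPM in the other HCT116 libraries.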

How the data were processed

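RNA-seq gene counts of 24 libraries were read, 6 of which entered the comparison, and libraries were grouped by their sample labels. The authors trimmed reads with Trim Galore 0.6.6, checked them with FastQC 0.11.9, aligned them to hg38 with HISAT2 2.2.1 (per the submitters' processing notes) and quantified genes with StringTie, whose version is not given in the sources used here. The deposited values are whole-number counts per gene symbol, not normalized. The use of the strand in counting and the annotation release are not given in the sources used here. All libraries list 60641 symbols in common, and 3 more, listed for the 1A to 3A libraries alone, were left out.

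From these counts, edgeR 4.0.16 (R 4.3.3, limma 3.58.1) was run with TMM, filterByExpr, glmQLFit and glmQLFTest on A549 WT B and HCT116 WT B, with FDR < 0.1 and |log2(fold change)| > 1 as thresholds, those of the study's methods. The SE is |log2(fold change)| divided by the square root of F. It is worked back from the test, so for genes with few counts in one line it may be smaller than the counting error. Means are given ± SD with n = 3 libraries. An exact permutation test of 3 against 3 cannot go below p = 0.1 (two-sided) and was not used. At these depths 3 counts correspond to between 0.0468 and 0.0722 CPM of the library total. Counting bounds and intervals cover counting error only, since the reads carry no molecular identifiers and may repeat a molecule. Replicates of a line had r = 0.993 to 0.996 over log2(CPM + 1), and no 2 libraries agreed within sampling noise. Gene positions are from GENCODE (GRCh38), which matched 37810 symbols. Clone names made up 2644 of the called genes and were not described. Some genes and 1 gene list are not reported here.

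The 24 gene lists, and the genes, were chosen with earlier results of these data known. The rule for named genes took the 12 genes furthest up and the 12 furthest down by log2(fold change), if called and of average log2 CPM of at least 5, without overlap between the lines, leaving out clone names, chromosome Y and XIST. It added the genes known to be altered and the called list members with large differences or high levels. Other members were named after their values were seen, mostly where they were not called or went against their list. Alternatives were DESeq2 1.42.0, upper-quartile normalization, DESeq2 size factors in edgeR, no filter, at least 10 counts in each library, other thresholds, HCT116 WT A as the other group, all 9 wild-type libraries in 1 fit, the replicate number as a block and each library left out. Library totals without TMM were added after the data were seen.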

Additional observations from a re-analysis of the deposited data

Results flagged for a closer look

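Signals of A549 appeared in HCT116 libraries that the comparison did not use. Counted as A549-type were 291 called genes averaging at least 10 CPM in A549 WT B and under 1 CPM in every HCT116 wild-type library. Counted as HCT116-type were 181 called genes averaging at least 10 CPM in both HCT116 wild-type sets and under 1 CPM in every A549 WT B library. Because WT A was used in this choice, the 0 of 291 at 1 CPM in its libraries was fixed in advance. In the HCT116 knockout libraries other than MSTRG.2513.6 KO replicates 2 and 3, between 0 and 19 of the 291 reached 1 CPM. In HCT116 MSTRG.2513.6 KO replicate 2, 286 of the A549-type genes were at 1 CPM or more and 172 of the HCT116-type genes were under 1 CPM. In HCT116 MSTRG.2513.6 KO replicate 3 the numbers were 286 and 170. Replicate 1 of that group had 19 and 0. ALDH1A1 was between 4910 and 5087 CPM in the 2 libraries, beside 6316 to 6975 CPM in A549 WT B on the same scale. The labels were kept, the 2 libraries entered no comparison between the wild types, and results over the other libraries are given with and without them. Whether the 2 libraries came from HCT116 cells was not tested.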

How the results depend on the processing

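The count of called genes was 9809 with DESeq2, 9988 with upper-quartile normalization, 9955 with DESeq2 size factors in edgeR, 11784 without a filter, 10768 against HCT116 WT A, 10464 with all 9 wild-type libraries in 1 fit and 10129 to 10568 when each library was left out in turn. It was 10540 with library totals in place of TMM, an alternative chosen after seeing the data. It was 5418 among genes with at least 10 counts in each library, of which 2691 were higher in A549 and 2727 in HCT116, 5590 beyond a log2(fold change) of 2 (2713 and 2877), and 17549 with no fold threshold (8706 and 8843). The labels link replicates of the 2 lines by number alone, and whether same-numbered libraries shared a batch was not tested. Deviations of same-numbered libraries had correlations of -0.228, -0.013 and -0.011 over 10288 genes. Those of libraries with different numbers ran from -0.103 to 0.129. A replicate block gave 9537 calls. Asking for at least 10 counts in each library removes genes near 0 in one line, and left 8 calls in the intestinal list, 11 in the liver-type list, 8 in the mesenchymal list, 22 in the Wnt list, 7 in the xenobiotic list, 2 in the TCA cycle list and 1 among markers of other cell types. The mismatch repair list had 8 calls against WT A and 5 against WT B. The other 352 of 360 list counts under alternatives lay within 1.5 times the values reported.

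Of 3762 log2(fold change) values of named genes under alternatives, 3670 kept their direction and their side of the threshold, 38 lost the call, 8 gained it and 46 changed sign, and the causes were not tested. Against HCT116 WT A the log2(fold change) turned to -0.70 for ACTA2, 0.38 for AXIN2, 0.35 for CDK4, -0.23 for COL1A1, 0.36 for CS, -1.31 for DUSP5, -0.34 for EPHA2, 0.24 for HOXB6, 0.47 for HOXB9, 0.19 for IDH3A, -0.10 for OGDH, -0.42 for PSAT1, -0.24 for SNAI1 and -0.31 for TWIST1. With library totals it turned to -0.01 for ALDOA, -0.07 for CTNNB1, -0.18 for DUSP5, -0.12 for EGF, -0.13 for EPHA2, -0.17 for GAPDH, -0.20 for KEAP1, -0.03 for MDH2, -0.11 for NFE2L2, -0.08 for OGDH, -0.12 for PGAM1, -0.15 for RB1, -0.24 for SFTPB, -0.26 for SNAI1 and -0.02 for TWIST1. With upper-quartile normalization it turned to -0.00 for KEAP1, -0.04 for SFTPB and -0.05 for SNAI1, without a filter to -0.01 for SFTPB and -0.02 for SNAI1, with at least 10 counts in each library to -0.01 for SFTPB and -0.02 for SNAI1, with all 9 wild-type libraries to -0.00 for SFTPB and -0.01 for SNAI1 and with the replicate block to -0.00 for SNAI1. With each library left out in turn, values that crossed 0 ran for EGF from -0.01 to 0.32, GPX4 from -0.15 to 0.04, IDH3A from -0.08 to 0.06, SFTPB from -0.17 to 0.13 and SNAI1 from -0.12 to 0.12. Of the genes that changed sign, ACTA2, AXIN2, HOXB6 and HOXB9 were called in the comparison with WT B and the rest were not. At these depths a gene read at 0 counts in all 3 libraries of a line could still hold up to 3 counts in each.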

Other observations

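Some genes of the chromosome 11 run differed between the wild-type sets of HCT116. Normalized over all 24 libraries, mean levels in WT A were 1.79 CPM for HBG2, 1.07 CPM for HBE1, 1.44 CPM for OR52D1, 0.0714 CPM for OR51B4 and 0.0186 CPM for OR51B6. In WT B, normalized over 6 libraries, they were 26.9 CPM for HBG2, 42 CPM for HBE1, 74.5 CPM for OR52D1, 22.3 CPM for OR51B4 and 14.1 CPM for OR51B6. Of the genes between them, OR51AB1P was also lower in WT A (0.0155 CPM in WT A and 2.25 CPM in WT B). The others stood at like levels in both sets, such as OR51B5 (116 CPM in WT A and 139 CPM in WT B), OR51M1 (96.4 and 80.1 CPM) and OR51Q1 (29.8 and 23.1 CPM). The libraries of WT A list 3 symbols more than those of WT B, and whether the 2 sets were counted with the same annotation was not tested.

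Of the genes with 0 counts in all 3 libraries of one line, 109 averaged at least 10 CPM in A549 and 39 averaged at least 10 CPM in HCT116. NNT, which had no count in HCT116 WT B, ran from 3.69 to 58.0 CPM over the 6 A549 knockout libraries and from 0 to 0.468 CPM over the HCT116 libraries outside the comparison other than HCT116 MSTRG.2513.6 KO replicates 2 and 3, where it was 54.3 to 55.1 CPM.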
